A study of Caenorhabditis elegans with 14 samples.

Results

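The comparison described here is that of *nfki-1(cer1)* L4 larvae with wild type (WT) L4 larvae of *Caenorhabditis elegans*, over every gene in the read count files. It rests on 4 of the 14 files of the series, 2 from *nfki-1(cer1)* and 2 from WT. Of the 42048 genes listed, 14812 had enough reads to be tested, 5098 had reads but did not pass the filter on low counts, and 22138 had no read in the 4 files. The mutant is strain CER178, in which genome editing removed 368 bp of *nfki-1* on chromosome X near its second exon and brought in a premature stop codon, and the reference is strain N2 (Bristol). Whole animal populations were synchronized, grown for 36 h at 25 °C and extracted together, so a tissue with fewer cells and a tissue with less RNA per cell cannot be told apart. The authors name changed germline development or a changed pace of larval growth as a possibility for their L4 data. The L4 larvae were collected at 36 h only, so a difference in stage cannot be told apart from other differences between the strains. It was not tested. The series also holds L4 larvae of *ikb-1(nr2027)* and of the double mutant, and L1 larvae of *nfki-1(cer2)*, *ikb-1(cer9)* and WT.

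NFKI-1 and IKB-1 are the nematode relatives of the mammalian IκB proteins, which hold NF-κB in the cytoplasm. The worm has IκB relatives although it lacks NF-κB, and NFKI-1 is known in neurons as a component of interleukin-17 signalling. During the L4 stage, the last larval stage, the germ line of the hermaphrodite proliferates, enters meiosis and makes sperm before it turns to oocytes, and the epidermis sheds the larval cuticle and secretes the adult one. Genes for the cuticle are transcribed in waves within each molting cycle, whereas yolk protein genes are switched on in the intestine around the passage to adulthood.

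The study's list of reagents gives a pair of guide RNAs for the *cer1* deletion, printed here because they are listed for the allele that is compared. The 10 bases at the 3′ end, next to the cut, are in capitals.
Guide listed for the C-terminal cut: aatgttcgtgTTGCCACAGG
Guide listed for the N-terminal cut: cttgttcgggACTGCACCGG
Each has 20 bases. The guide listed for the N-terminal cut shares a run of 14 bases with the reverse primer used to clone the *nfki-1* coding sequence, and the other guide shares at most 6. In the NFKI-1 protein sequence printed by the study, the guide listed for the C-terminal cut encodes NVRVATG, which lies in the N-terminal part. Read on the other strand, the guide listed for the N-terminal cut encodes GAVPNK, which lies near the C-terminal end. The terminal labels thus appear interchanged, and sites so far apart would not closely flank a deletion of 368 bp. The cuts were not mapped on the genome here.

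Reads counted on genes numbered 21948017 to 22373456 per file. The share of reads on no gene was 15.61% and 13.49% in the 2 *nfki-1(cer1)* files and 15.61% and 13.58% in the 2 WT files. Over genes with 50 to 1000 reads, the squared difference between the 2 files of a strain was 4.03 times the counting variance in *nfki-1(cer1)* and 3.08 times in WT. After removal of the part of this difference shared with the remaining strains, it was 0.491 times and 0.498 times. Beyond that shared part, the file pairs of each strain therefore differed by less than the counting variance, and each pair was counted as 1 sample. Independent counts would give about 1 by this measure, so the 2 files of a strain are not read as separate measurements. Why they were so alike was not tested. With 1 sample per strain the difference has no replicate check. A gene is called higher or lower here when its log2 ratio of scaled reads was at least 2 in size, a 4-fold difference, and the 95% intervals given are exact binomial ones that cover counting error only. A second measure, the adjusted p of edgeR's quasi-likelihood test, borrows the spread between the L1 libraries and assumes that an L4 sample varies as an L1 sample does. "Rose" and "fell" are used below of genes with an adjusted p under 0.05 in that test.

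*nfki-1* itself, on chromosome X at 15355238 to 15363861 (WBcel235), had 7.21 and 6.44 CPM (counts per megaread on genes, with totals scaled by TMM factors) in the *nfki-1(cer1)* files, against 36.5 and 37.1 CPM in the WT files. It was thus low in both mutant files, with a log2 ratio of -2.43 (95% interval -2.60 to -2.26, adjusted p = 0.00904). *ikb-1*, on chromosome I at 9685398 to 9688653, had 5.90 and 5.65 CPM in *nfki-1(cer1)*, against 11.5 and 11.8 CPM in WT. Its log2 ratio of -1.01 did not reach the 4-fold threshold, and its adjusted p was 0.0765.

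Most germline genes tested and the yolk protein genes were more abundant in *nfki-1(cer1)*, while furrow and body shape collagens and many molting genes were less abundant. Of 137 *col* collagen genes, 22 were higher and 45 were lower, with a median log2 ratio of -1.24. Ribosomal protein and muscle genes were lower by less than 4-fold for the most part. In all, 1860 genes, or 12.6% of those tested, were higher in *nfki-1(cer1)* and 928 genes, or 6.27%, were lower. Of these 2788 genes, 2764 differed in the same direction in all 4 pairings of a mutant file with a WT file, and the counting interval left out 0 for all 2788. Both counts follow largely from choosing the genes by the summed reads of the same files, so they are no independent check of the calls. The genes called higher had a median of 16.6 CPM in *nfki-1(cer1)* and 2.08 CPM in WT. The genes called lower had a median of 2.19 CPM in *nfki-1(cer1)* and 14.8 CPM in WT. WT had no read for 74 of the higher genes, and *nfki-1(cer1)* had none for 5 of the lower genes. Scaling matters for the balance of the calls: with TMM factors the median log2 ratio of all genes was -0.06, and with library totals alone it was 0.36, which made 17.9% of the genes higher and 3.48% lower.

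With the spread of the L1 libraries, 2244 genes (15.1%) rose and 1985 genes (13.4%) fell in *nfki-1(cer1)*, and 1303 of the 4-fold higher genes and 594 of the 4-fold lower genes were among them. The number that fell depended on single L1 libraries. It was 915 and 944 without replicate 1 or 2 of *nfki-1(cer2)*, and 1125 and 1185 without replicate 1 or 2 of *ikb-1(cer9)*.

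Oocyte and eggshell genes showed the largest shift of the 20 marker lists. Of 32 tested, 30 were higher in *nfki-1(cer1)*, none was lower, and 31 rose, and the median log2 ratio was 5.00 (4.93 with the 1 gene that WT lacked reads for set at its lower bound). *cpg-2*, which encodes a chitin-binding proteoglycan of the eggshell, had 1520 and 1377 CPM in *nfki-1(cer1)*, against 35.0 and 33.7 CPM in WT. It had the most reads of the list, and its log2 ratio was 5.40 (5.32 to 5.48, adjusted p = 0.00603). *oma-2*, which encodes a zinc finger protein needed for oocyte maturation, had 183 and 212 CPM in *nfki-1(cer1)* and 3.69 and 3.75 CPM in WT, a log2 ratio of 5.72. *nos-2*, a Nanos relative translated in the germ cell precursors of the embryo, had 11.3 and 16.8 CPM in *nfki-1(cer1)* and 0.107 and 0.214 CPM in WT (6 reads over both WT files). The ratio of *nos-2* was 6.26 on the log2 scale, with a wide counting interval of 5.32 to 7.90. *nos-2* overlaps *him-14* in the annotation, and whether counting used the strand is not given in the sources used here. The same limit holds for these genes named here, each with an overlapping neighbour: *col-41*, *col-124*, *col-122*, *col-19*, *vit-2*, *hsp-70*, *bli-1*, *bli-2*, *dpy-8*, *dpy-10*, *lon-3*, *crt-1*, *tni-4*, *mec-17*, *chil-10*, *chil-27*, *ints-11*, *grd-11*, *grl-15*, *hlh-12*, *inx-9*, *fkh-6*, *cog-1*, *zmp-1*, *ttn-1*, *dpy-26*, *ife-1*, *mes-6*, *C01G6.3*, *R09F10.8* and *F11E6.9*.

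The other germline lists shifted the same way, with smaller medians. Of 24 germ cell regulators and P granule genes, 20 were higher and 22 rose, with a median log2 ratio of 2.88. *cgh-1*, a conserved RNA helicase of germ cells, had 1440 and 1504 CPM in *nfki-1(cer1)*, against 125 and 134 CPM in WT. *gld-3*, which works with a cytoplasmic poly(A) polymerase, had 134.9 and 145 CPM in *nfki-1(cer1)* and 7.01 and 5.90 CPM in WT, a log2 ratio of 4.43. *meg-4*, which encodes a disordered P granule protein, had 16.7 and 16.8 CPM in *nfki-1(cer1)* and 0.268 and 0.322 CPM in WT. The ratios of these genes were 3.51 for *cgh-1* and 5.73 for *meg-4*, and no file of one strain overlapped the other. The 1 gene of the list without a positive ratio was *ife-1*, a cap-binding translation factor (named after its value was seen), with 177 and 188 CPM in *nfki-1(cer1)* and 177 and 189 CPM in WT.

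Of the 32 meiotic chromosome genes, 29 were higher and 30 rose, with a median log2 ratio of 2.83 and a lowest value of 1.61. *syp-4*, a component of the synaptonemal complex that holds homologous chromosomes together, had 97.6 and 98.5 CPM in *nfki-1(cer1)* and 5.51 and 5.58 CPM in WT. *zim-2*, which binds the pairing centre of a chromosome, had 26.1 and 24.9 CPM in *nfki-1(cer1)* and 1.18 and 1.29 CPM in WT, and it overlaps its neighbour *zim-1*. *him-17*, needed for meiotic recombination, had the most reads of the list, with 116 and 109 CPM in *nfki-1(cer1)* and 23.2 and 22.2 CPM in WT. The log2 ratios were 4.14 for *syp-4*, 4.35 for *zim-2* and 2.31 for *him-17*.

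Sperm genes had the lowest median of the germline lists. Among them 27.6% were higher, against 12.6% of all genes. Of 29 tested, 8 were higher, none was lower and 5 rose, and their median log2 ratio was 1.42. *cpb-1*, an RNA-binding protein that acts in spermatogenesis, had 39.0 and 40.7 CPM in *nfki-1(cer1)* and 3.21 and 3.22 CPM in WT, the largest ratio of the list at 3.62. *spe-41*, which encodes a sperm calcium channel, had 21.6 and 21.4 CPM in *nfki-1(cer1)* and 3.801 and 4.24 CPM in WT. *msd-4*, with the most reads of the list, had 79.9 and 30.7 CPM in *nfki-1(cer1)* and 23.7 and 10.5 CPM in WT, so that the files of a strain differed by more than 2-fold. Its log2 ratio was 1.69, with an adjusted p of 0.106. The genes for major sperm protein, the motile protein of nematode sperm, were thinly counted, with 541 and 253 reads over 31 genes in *nfki-1(cer1)* and 94 and 64 reads in WT. These genes are near-identical copies, so that the share of reads each received and their total are uncertain, and 9 of them were tested. Reads with low-quality alignments, 6.98% to 7.83% per file, were counted on no gene. How many of those came from these copies was not tested.

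The cell cycle and DNA replication genes, which serve the dividing germ line and the dividing somatic cells, had a median log2 ratio of 2.02. Of 31, 16 were higher, none was lower and 20 rose. *cyb-2.2*, a B-type cyclin, had 17.2 and 37.5 CPM in *nfki-1(cer1)* and 0.268 and 0.965 CPM in WT, a log2 ratio of 5.42. *cpar-1*, a variant of the centromeric histone, had 23.9 and 22.5 CPM in *nfki-1(cer1)* and 1.23 and 1.18 CPM in WT. *rnr-1*, the large subunit of ribonucleotide reductase, had the most reads of the list and differed little, with 252 and 248 CPM in *nfki-1(cer1)* and 201 and 203 CPM in WT. The genes of the MCM replicative helicase, from *mcm-2* to *mcm-7*, had log2 ratios between 1.31 for *mcm-4* and 2.26 for *mcm-7* (named after their values were seen), and of these *mcm-2* rose.

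**Figure D1:**
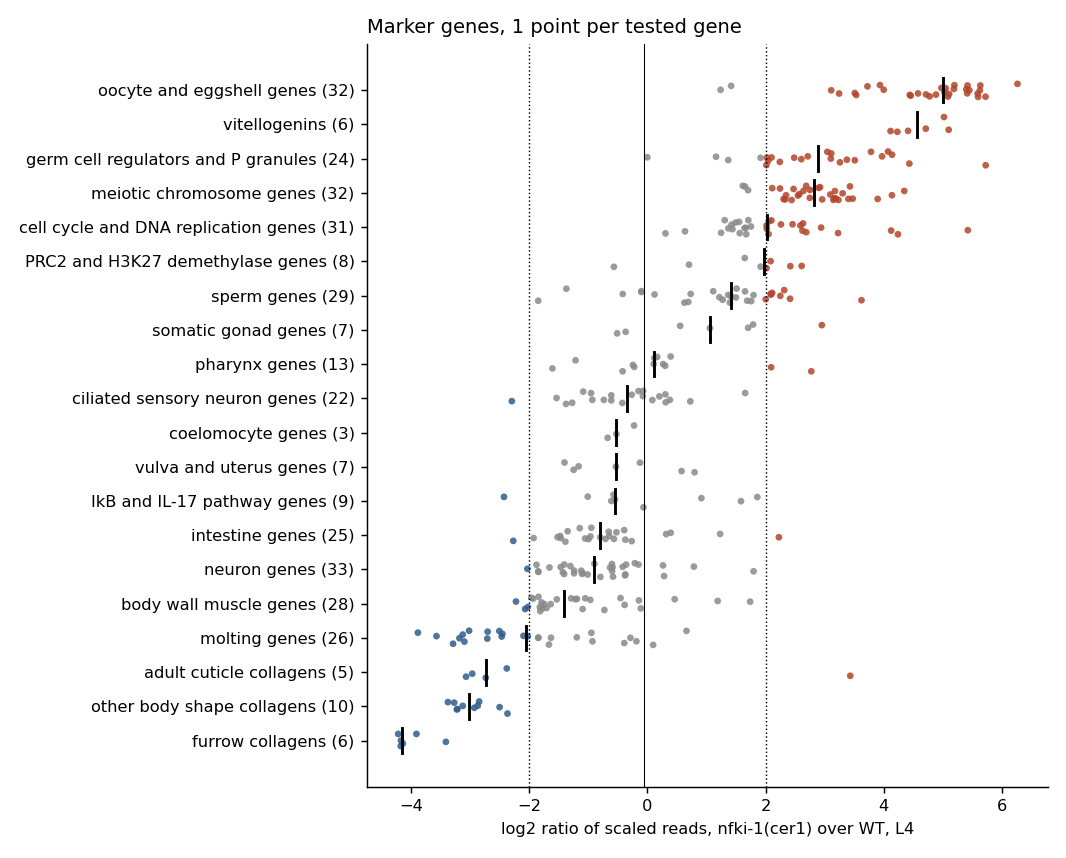
Log2 ratio of scaled reads in *nfki-1(cer1)* over WT for each tested gene (1 point) of 20 marker lists, with the number of tested genes in brackets. Thick bars are list medians, the thin line is the median of all genes (-0.06), and dotted lines mark log2 ratios of 2 and -2. Oocyte and eggshell genes lie farthest to the right (median 5.00) and furrow collagens farthest to the left (median -4.15).

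The 6 vitellogenin genes, which encode the yolk proteins that the intestine exports to oocytes, were all higher in *nfki-1(cer1)*, with a median log2 ratio of 4.56. *vit-6*, on chromosome IV at 8261157 to 8266459, had 16289 and 15631 CPM in *nfki-1(cer1)* and 860 and 839 CPM in WT, the largest gain in CPM of any gene. *vit-2* had 4418 and 4318 CPM in *nfki-1(cer1)* and 257 and 247 CPM in WT. The log2 ratios were 4.23 for *vit-6* and 4.12 for *vit-2*, but with the L1 spread neither passed the test (adjusted p = 0.0782 and 0.0572). *vit-1*, *vit-3*, *vit-4* and *vit-5* rose, with log2 ratios of 4.41, 4.71, 5.10 and 5.02. *vit-4* had the fewest reads, with 23.3 and 11.3 CPM in *nfki-1(cer1)* and 0.803 and 0.161 CPM in WT. *vit-3*, *vit-4* and *vit-5* are near-identical, and the share of reads each received is uncertain.

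Other intestinal genes did not follow the yolk genes. Of 25 tested, 1 (4.0%) was higher and 1 (4.0%) was lower, against 12.6% and 6.27% of all genes. A negative log2 ratio was found for 21, and the median was -0.80. *asp-1*, an aspartic protease of the intestine, had 5685 and 5477 CPM in *nfki-1(cer1)* and 14338 and 14102 CPM in WT, the largest loss in CPM of any gene. Its log2 ratio of -1.35 had an adjusted p of 0.145. *cpr-4*, a cathepsin B-like protease, had 178 and 159 CPM in *nfki-1(cer1)* and 844 and 783 CPM in WT, and it fell with a log2 ratio of -2.27. *fat-7*, a fatty acid desaturase, had 12.04 and 13.7 CPM in *nfki-1(cer1)* and 47.6 and 50.2 CPM in WT (adjusted p = 0.052). The 1 gene of this list that was higher was *lys-7*, a lysozyme, at a log2 ratio of 2.23 (named after its value was seen).

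The furrow collagens, a set that is made together in the molting cycle and needed for the annular furrows of the cuticle, were the lowest of all lists. All 6 were lower in *nfki-1(cer1)*, with log2 ratios of -4.22 to -3.41 and a median of -4.15, and 4 fell. *dpy-3* had 9.94 and 9.42 CPM in *nfki-1(cer1)* and 187 and 174 CPM in WT. *dpy-7* had 14.5 and 14.8 CPM in *nfki-1(cer1)* and 258 and 272 CPM in WT. *dpy-8* had 21.1 and 19.98 CPM in *nfki-1(cer1)* and 313 and 305 CPM in WT. The other members lay close to these, with log2 ratios of -4.17 for *dpy-2*, -4.14 for *dpy-9* and -3.41 for *dpy-10*, and *dpy-7* and *dpy-10* did not pass the test (adjusted p = 0.0593 and 0.052).

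The 10 other body shape collagens were likewise all lower, with log2 ratios of -3.38 to -2.37, and 8 fell. *dpy-13*, the most counted of them, had 348 and 347 CPM in *nfki-1(cer1)* and 2520 and 2563 CPM in WT. *sqt-1*, in which mutations coil the body, had 165 and 149 CPM in *nfki-1(cer1)* and 1583 and 1445 CPM in WT. *lon-3*, whose loss lengthens the body, had 56.4 and 55.9 CPM in *nfki-1(cer1)* and 585 and 582 CPM in WT. Their log2 ratios were -2.87, -3.27 and -3.38. This list summed to 1920 CPM in each *nfki-1(cer1)* file, against 14600 and 14900 CPM in the WT files.

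The list of collagens of the adult cuticle was split. *col-19*, a collagen turned on at the passage to the adult, had 2393 and 2180 CPM in *nfki-1(cer1)* and 221 and 202 CPM in WT, a log2 ratio of 3.43 (adjusted p = 0.0847). The 4 others tested were lower. *rol-6* had 81.2 and 82.0 CPM in *nfki-1(cer1)* and 674 and 696 CPM in WT. *bli-1* and *bli-2*, which form the struts of the adult cuticle, had log2 ratios of -2.74 and -2.96. *col-63* had 297 and 268 CPM in *nfki-1(cer1)* and 1543 and 1399 CPM in WT. Of these 5 genes, *bli-2* alone passed the test (adjusted p = 0.0237).

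Of 26 molting genes, 14 were lower, none was higher, 11 fell, and the median log2 ratio was -2.06. *mlt-11*, a protease inhibitor of the molting cycle, had 97.96 and 95.2 CPM in *nfki-1(cer1)* and 847 and 838 CPM in WT. *noah-2*, a zona pellucida protein of the apical matrix under the cuticle, had 59.6 and 58.5 CPM in *nfki-1(cer1)* and 701 CPM in both WT files. *lpr-3*, a lipocalin of the same matrix, had 30.9 and 29.4 CPM in *nfki-1(cer1)* and 453 and 438 CPM in WT. Of these, *mlt-11* fell (log2 ratio -3.12, adjusted p = 0.0474), while *noah-2* and *lpr-3* did not pass the test (-3.57 and -3.88, adjusted p = 0.0736 and 0.0636). The nuclear receptor gene *nhr-23*, which drives molting gene transcription, had a log2 ratio of 0.66, the highest of the list (named after its value was seen).

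The *col* genes, the main family of cuticle collagens, differed in both directions. Of 137 tested, 22 (16.1%) were higher and 45 (32.8%) were lower, against 12.6% and 6.27% of all genes. The higher share was thus near that of all genes. The 22 higher genes summed to 33800 and 31900 CPM in *nfki-1(cer1)* and 4510 and 4300 CPM in WT. The 45 lower genes summed to 3690 and 3680 CPM in *nfki-1(cer1)* and 20300 and 21000 CPM in WT. By mean CPM of both strains, which a change in either strain moves, among the 63 *col* genes that averaged 100 CPM or more, 17 were higher and 28 lower, and among the 74 below 100 CPM, 5 were higher and 17 lower.

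After *vit-6* and *vit-2*, the next 8 genes by gain in CPM were all *col* genes. *col-129* had 3187 and 3043 CPM in *nfki-1(cer1)* and 480 and 466 CPM in WT, and *col-20* had 2922 and 2463 CPM in *nfki-1(cer1)* and 234 and 198 CPM in WT. *col-124* had 2911 and 2975 CPM in *nfki-1(cer1)* and 323 and 336 CPM in WT, and *col-139* had 2987 and 3019 CPM in *nfki-1(cer1)* and 408 and 420 CPM in WT. The log2 ratios of these abundant collagens were alike, between 2.38 for *col-122* and 3.64 for *col-20*, and *col-129*, *col-124*, *col-139*, *col-20* and *col-122* rose while *col-181*, *col-81* and *col-140* did not pass the test (adjusted p = 0.26, 0.112 and 0.228). At the other end, *col-176* had 3.92 CPM in both *nfki-1(cer1)* files and 234 and 227 CPM in WT, a log2 ratio of -5.87 (-6.09 to -5.67), the largest decrease among genes with a mean of 10 CPM or more. *col-41* had 8.24 and 7.81 CPM in *nfki-1(cer1)* and 268 and 267 CPM in WT, and *col-54* had 1.70 and 1.73 CPM in *nfki-1(cer1)* and 49.2 and 49.9 CPM in WT. All 3 fell.

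**Figure D2:**
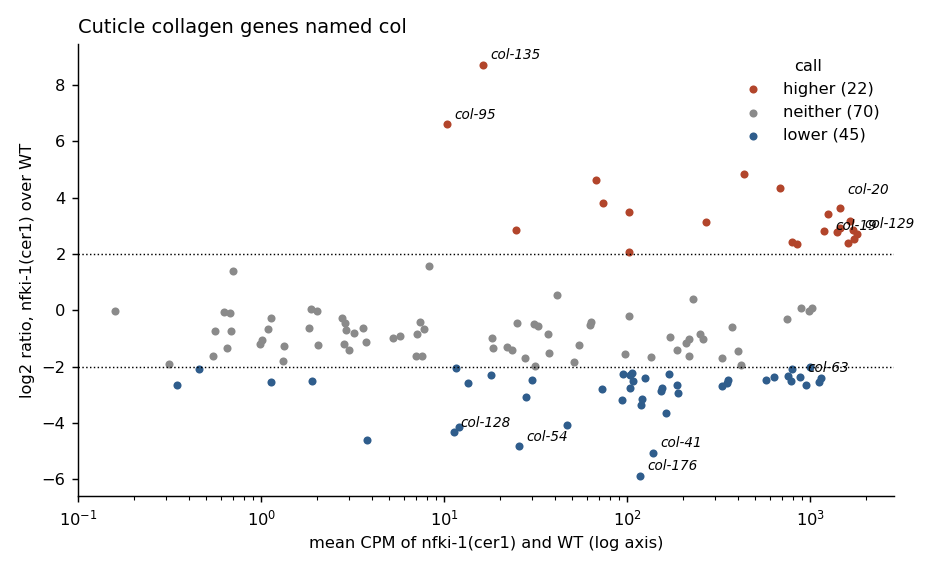
Log2 ratio of scaled reads in *nfki-1(cer1)* over WT against the mean CPM of the strains (log axis) for the 137 tested *col* genes, with 22 called higher, 70 neither and 45 lower, and dotted lines at 2 and -2. A cluster of abundant genes near 1000 CPM that includes *col-20*, *col-19* and *col-129* lies above 2, and *col-176* lies lowest at -5.87.

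Of the 10 largest log2 increases, taken over genes whose mean reached 10 CPM, *col-135* came first, with 797 and 850 reads in *nfki-1(cer1)* and 2 and 0 reads in WT, a log2 ratio of 8.73 (7.39 to 12.29). *clec-223*, a C-type lectin, had 673 and 627 reads in *nfki-1(cer1)* and 4 and 0 reads in WT. *meg-1*, a P granule protein inherited by the embryonic germ line, had 66.1 and 68.1 CPM in *nfki-1(cer1)* and 0.589 and 0.590 CPM in WT. The others were *col-95*, *R04D3.3*, *C01G6.3*, *F02E8.4*, *F14D7.2*, *R09F10.8* and *F08F3.6*, with log2 ratios of 5.87 to 7.12, and all 10 rose. Apart from *col-176*, *col-41* and *col-54*, the 10 largest decreases included the heat-inducible chaperone genes *hsp-16.41*, *hsp-16.2* and *hsp-70*. *hsp-16.41* had 5.62 and 5.46 CPM in *nfki-1(cer1)* and 139 and 127 CPM in WT, and *hsp-16.2* had 6.49 and 3.49 CPM in *nfki-1(cer1)* and 144 and 84.9 CPM in WT. *hsp-70* had 6.10 and 5.81 CPM in *nfki-1(cer1)* and 126 and 124 CPM in WT, with a log2 ratio of -4.39 that did not pass the test (adjusted p = 0.0559). The *hsp-16* genes encode small heat shock proteins that keep damaged proteins from clumping, and both of these fell. The remaining decreases were *atf-8*, a bZIP transcription factor gene, *F11E6.9*, *col-128* and *dpy-3*, with log2 ratios of -4.46 to -4.22.

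Muscle, neuron and pharynx genes had medians closer to 0 than the oocyte, yolk and furrow collagen lists. Of 28 body wall muscle genes, 3 were lower, none was higher, 9 fell and 1 rose, and 25 had a negative log2 ratio, with a median of -1.41. The lower share of the muscle genes was 10.7%, against 6.27% of all genes. With library totals none of the muscle genes was lower and 1 was higher, and the median was -0.99 where that of all genes was 0.36. The lower genes numbered 6 without the first *nfki-1(cer1)* file and 1 where each file had to hold 10 counts. *unc-54*, the major muscle myosin heavy chain, had 1964 and 1901 CPM in *nfki-1(cer1)* and 4157 and 4100 CPM in WT (log2 ratio -1.10, adjusted p = 0.128). *tnt-2*, a troponin T, had 352 and 369 CPM in *nfki-1(cer1)* and 1656 and 1714 CPM in WT. *dim-1*, an immunoglobulin domain protein of the muscle attachment, had 239 and 270 CPM in *nfki-1(cer1)* and 992 and 1149 CPM in WT, and it fell. The gene that rose was *ttn-1*, the titin-like giant protein, at a log2 ratio of 1.74 (named after its value was seen).

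Of 33 neuron genes, 1 was lower, none was higher, 13 fell and 1 rose, with a median log2 ratio of -0.90, and with library totals none was lower and 1 was higher. The lower share of the neuron genes, 3.03%, was below the 6.27% of all genes. *mec-17*, a tubulin acetyltransferase of the touch neurons, had 35.3 and 32.6 CPM in *nfki-1(cer1)* and 143 and 134 CPM in WT. *mec-7*, a tubulin of the same cells, had 42.3 and 41.2 CPM in *nfki-1(cer1)* and 157 and 150 CPM in WT (adjusted p = 0.0684). *egl-21*, which processes neuropeptides, had 87.3 and 86.9 CPM in *nfki-1(cer1)* and 228 and 234 CPM in WT. The 22 genes of ciliated sensory neurons had a median of -0.34 that changed sign, to 0.06, with library totals, and 1 of them was lower, *bbs-2*, which had 5 and 6 reads in *nfki-1(cer1)* and 20 and 23 reads in WT.

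Among 13 pharynx genes, 2 (15.4%) were higher, near the 12.6% of all genes, and none was lower, with a median log2 ratio of 0.12. *myo-5*, a myosin, had 13.8 and 14.3 CPM in *nfki-1(cer1)* and 2.14 and 1.93 CPM in WT, and *tni-4*, a troponin I, had 12.7 and 12.8 CPM in *nfki-1(cer1)* and 3.00 and 2.95 CPM in WT. *pha-4*, the transcription factor that specifies the organ, had 8.16 and 7.30 CPM in *nfki-1(cer1)* and 18.4 and 17.5 CPM in WT, and it fell.

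In the somatic gonad list, *inx-8*, a gap junction protein between the sheath and the germ cells, had 50.1 and 46.0 CPM in *nfki-1(cer1)* and 6.64 and 5.74 CPM in WT (log2 ratio 2.95, adjusted p = 0.124). It was the 1 gene of the list past 4-fold, against 3 with library totals. Its partner *inx-9* had a log2 ratio of 1.70, *lim-7* of the sheath had 1.06, *hlh-12* 1.79, *fkh-6* 0.55, *ceh-18* -0.37 and *lag-2* -0.51, and none of the 7 passed the test. The 7 vulva and uterus genes ranged from -1.40 for *vab-23*, which fell, to 0.80 for *lin-11*, and the 3 coelomocyte genes from -0.67 for *unc-122* to -0.23 for *cup-4*. The log2 ratios between these were -1.25 for *zmp-1*, -1.16 for *egl-38*, -0.53 for *cog-1*, -0.13 for *cdh-3*, 0.58 for *egl-17* and -0.53 for the coelomocyte gene *lgc-26*. Neither list held a gene past 4-fold.

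Genes of the IκB and interleukin-17 pathway did not move as a group. Apart from *nfki-1*, none of the 9 tested was past 4-fold (2 were higher with library totals), and *lin-23*, an F-box protein related to the mammalian one that marks IκB for destruction, rose to 111 and 114 CPM in *nfki-1(cer1)*, against 37.8 and 37.3 CPM in WT. *ikke-1*, the relative of the IκB kinases, also rose, with a log2 ratio of 1.86 (named after its value was seen). Of 8 genes of the Polycomb repressive complex 2, of H3K27 demethylases and of H3K36 methyltransferases, 4 were higher and 5 rose, with a median log2 ratio of 1.97. *met-1* had 112.1 and 111 CPM in *nfki-1(cer1)* and 18.8 and 17.6 CPM in WT, and *mes-4*, which maintains H3K36 methylation in the germ line, had 61.97 and 61.7 CPM in *nfki-1(cer1)* and 11.7 and 11.4 CPM in WT. *jmjd-3.3*, a relative of the demethylases and past 4-fold, had 21 reads in each *nfki-1(cer1)* file and 4 and 3 reads in WT (named after its value was seen), and it did not pass the test (adjusted p = 0.0943). The Polycomb genes *mes-2*, *mes-3* and *mes-6*, which are expressed in the germ line, had log2 ratios of 2.09, 1.92 and 1.65, and the demethylase genes *utx-1* and *jmjd-3.1* had 0.70 and -0.57.

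Measured by reads, the genes that gained held 32.5 percentage points more of all reads on genes in *nfki-1(cer1)* than in WT. The yolk protein genes held 2.43% and 2.37% of the reads in *nfki-1(cer1)* and 0.0981% and 0.0951% in WT. The *col* family held 4.97% and 4.76% in *nfki-1(cer1)* and 2.93% in both WT files. The largest losses were those of the ribosomal protein families. Genes of the large subunit (*rpl*) held 5.12% and 5.06% of the reads in *nfki-1(cer1)* and 8.05% and 7.97% in WT, and genes of the small subunit (*rps*) held 4.07% and 4.16% in *nfki-1(cer1)* and 6.72% and 6.83% in WT. Most of these genes differed by less than 4-fold. Of 45 *rpl* genes 42 had a negative log2 ratio, 1 was past 4-fold and 41 fell, with a median of -1.08 and a range of -2.06 to 1.73, and all 31 *rps* genes had a negative ratio and 30 fell, with a median of -1.11. With library totals these medians were -0.66 and -0.70, where the median of all genes was 0.36.

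The 10 genes with the largest loss in CPM, of which *asp-1* was the first, also included a lipid-binding protein and genes of the endoplasmic reticulum. *far-2*, a secreted lipid-binding protein, had 2910 and 3104 CPM in *nfki-1(cer1)* and 8248 and 9052 CPM in WT. *pdi-2*, a protein disulfide isomerase that also serves the hydroxylation of collagen, had 1160 and 1140 CPM in *nfki-1(cer1)* and 5055 and 4987 CPM in WT, the only one of the 10 past 4-fold (log2 ratio -2.13). *crt-1*, the calreticulin of the endoplasmic reticulum, had 2190 and 2288 CPM in *nfki-1(cer1)* and 6209 and 6432 CPM in WT. *rpl-3*, *rla-0* (a ribosomal stalk protein), *ant-1.1* (the mitochondrial ADP/ATP carrier), *ahcy-1* (adenosylhomocysteinase), *clec-63* and *C17F4.7* completed the set, with log2 ratios of -1.65 to -1.07. Of the 10, *C17F4.7*, *rpl-3*, *crt-1*, *pdi-2* and *rla-0* fell, and the 5 others did not pass the test.

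**Figure D3:**
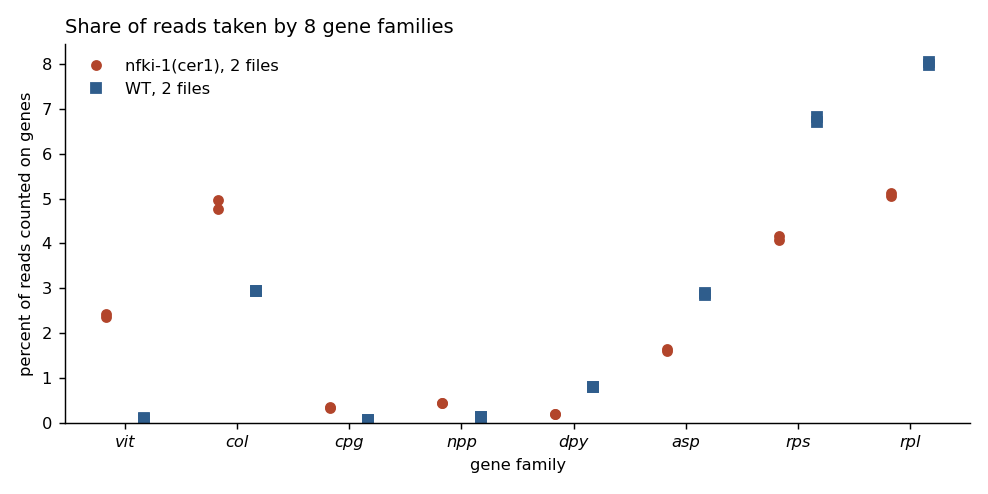
Percent of reads counted on genes that 8 gene families took in each file, with *nfki-1(cer1)* as circles at the left and WT as squares at the right of each pair. The *vit* and *col* families took more in *nfki-1(cer1)* (2.43% and 4.97% in the first file), and the *asp*, *rps* and *rpl* families took more in WT (2.90%, 6.72% and 8.05% in the first file).

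Families are defined here by the letters of the gene name, and 137 of them had at least 10 tested genes. Their 3364 tested genes included 313 that were higher and 231 that were lower. The family with the largest share of higher genes was *him*, genes whose mutants give a high incidence of males through meiotic errors, with 9 of 11 higher and 10 risen. *him-1*, a cohesin subunit, had 228 and 232 CPM in *nfki-1(cer1)* and 31.7 and 32.0 CPM in WT. *him-14*, which promotes crossing over, had 26.8 and 24.1 CPM in *nfki-1(cer1)* and 1.61 and 1.77 CPM in WT. This family shares members with the meiotic list.

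The *bath* family, whose members carry BTB and MATH domains of the kind that bring substrates to a ubiquitin ligase, had 20 of 32 genes higher, none lower and 20 risen. *bath-42* had 132 and 145 CPM in *nfki-1(cer1)* and 34.3 and 37.2 CPM in WT, just below 4-fold. *bath-19* had 7.36 and 8.08 CPM in *nfki-1(cer1)* and 0.321 and 0.322 CPM in WT, a log2 ratio of 4.49. Of the F-box genes of the *fbxc* family, 9 of 20 were higher, none was lower and 8 rose. Where each file had to hold 10 counts, 10 *bath* and 3 *fbxc* genes were higher. *fbxc-50* had 29.97 and 27.8 CPM in *nfki-1(cer1)* and 3.105 and 2.79 CPM in WT, and *fbxc-32* had 151 and 143 reads in *nfki-1(cer1)* and 1 and 0 reads in WT (6.88, 5.27 to 13.07).

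The chitinase-like *chil* genes had 7 of 12 higher, but at low counts, and 1 was higher where each file had to hold 10 counts. *chil-27* had 17 and 14 reads in *nfki-1(cer1)* and none in WT, at least 7.6-fold higher, and *chil-10*, with the most reads, had 22.1 and 21.2 CPM in *nfki-1(cer1)* and 35.9 and 34.3 CPM in WT. Among the chromodomain genes (*cec*), 4 of 10 were higher, among them *cec-9* with a log2 ratio of 3.01, while *cec-5* had 108 and 105 CPM in *nfki-1(cer1)* and 70.6 and 67.0 CPM in WT. Of the Integrator subunits (*ints*), which process small nuclear RNAs, 4 of 10 were higher (7 with library totals) and all 10 had a positive ratio. *ints-11*, the catalytic subunit, had 126 and 120 CPM in *nfki-1(cer1)* and 22.3 and 20.8 CPM in WT, and *ints-2* had 73.4 and 77.4 CPM in *nfki-1(cer1)* and 11.7 and 12.3 CPM in WT.

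Among the families with the largest shares of lower genes, *dpy* had 14 of 24 lower and 1 higher (3 higher with library totals). The lower ones included the furrow and body shape collagens given above, and the higher one, *dpy-26* (named after its value was seen), belongs to the condensin complex of dosage compensation. The hedgehog-related families *grd* and *grl*, many of whose members are expressed in the epidermis, had 5 of 12 and 7 of 21 lower, or 2 and 4 with library totals. In *grl* 1 gene was higher and 1 fell, and in *grd* none was higher and 4 fell. *grl-15* had 12.1 and 14.05 CPM in *nfki-1(cer1)* and 124 and 154 CPM in WT, and *grl-16* had 285 and 290 CPM in *nfki-1(cer1)* and 1030 and 1051 CPM in WT. Neither passed the test (adjusted p = 0.0676 and 0.213). *grd-5* had 103.7 and 137 CPM in *nfki-1(cer1)* and 282 and 377 CPM in WT, and *grd-11* had 2 and 3 reads in *nfki-1(cer1)* and 18 and 21 reads in WT.

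The *lips* genes, which encode lipase-related proteins, had 4 of 11 lower and 1 higher, or 1 lower and 1 higher with library totals, and 2 fell. Among them were *lips-9* at 9.66 and 10.8 CPM in *nfki-1(cer1)* and 59.8 and 60.1 CPM in WT, and *lips-10* at 19.6 and 19.4 CPM in *nfki-1(cer1)* and 81.3 and 82.1 CPM in WT. The *str* chemoreceptor genes had 4 of 12 lower and 1 higher, and none in either direction where each file had to hold 10 counts. *str-168* had 4 and 7 reads in *nfki-1(cer1)* and 49 and 39 reads in WT, while *str-176*, the most counted, had 30.6 and 32.6 CPM in *nfki-1(cer1)* and 10.4 and 11.2 CPM in WT.

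**Figure D4:**
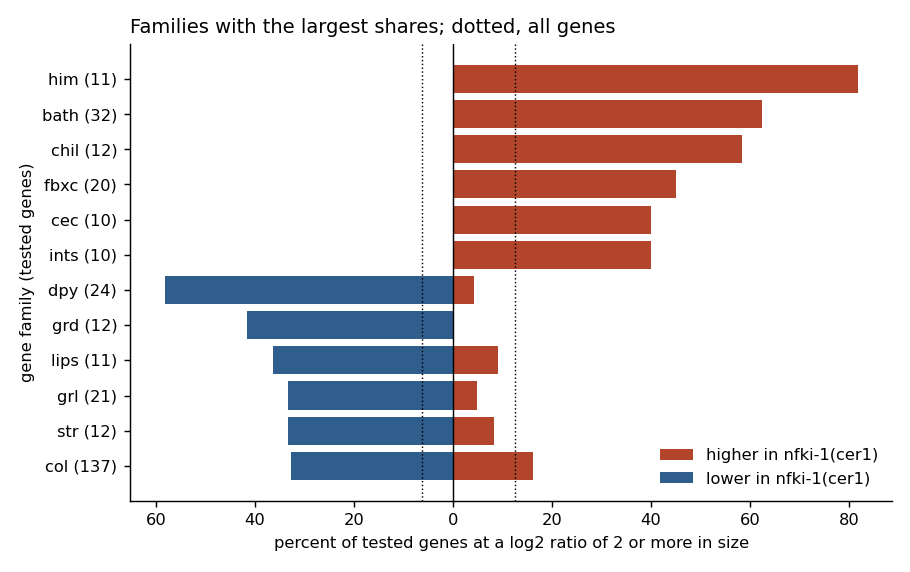
Percent of the tested genes of a family that were at least 4-fold higher (right) or lower (left) in *nfki-1(cer1)*, for the 6 families with the largest share in each direction, with the number of tested genes in brackets. Dotted lines give the shares over all genes, 12.6% higher and 6.27% lower. The *him* family stands at 81.8% higher and the *dpy* family at 58.3% lower.

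By kind of gene, 14187 tested genes were protein-coding, with 12.3% higher and 6.27% lower. By the share of 4-fold higher genes, the 107 tested pseudogenes differed most from this, with 42 (39.3%) higher and 5 (4.67%) lower and a median log2 ratio of 1.44. With the L1 spread they did not stand out, since 15 of the 107 rose, where 15.1% of all tested genes did. They were thinly counted, and summed to 417 and 412 CPM in *nfki-1(cer1)* and 160 and 152 CPM in WT. Of 53 long intergenic noncoding RNAs, 5 were higher and 11 (20.8%) were lower.

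The share of called genes differed among chromosomes. Of the genes tested, 14538 had a chromosome in the annotation (WBcel235). Higher genes made up 15.7% of the 2403 tested on chromosome I, 15.1% of 2491 on II, 10.9% of 2276 on III and 11.2% of 2868 on V, but 7.15% of the 2056 on X. On IV, 343 of 2444 tested genes were higher. The X chromosome was also the only one with more lower than higher genes, at 185 and 147, but with library totals it had 115 lower and 172 higher genes. Over chromosome X the median log2 ratio was -0.54, against 0.08 over the autosomes, and 121 X-linked genes rose and 386 fell, against 2074 and 1571 autosomal genes. These counts are out of 2056 tested genes on X and 12482 on the autosomes. The X carried 9.58% and 9.54% of the reads in *nfki-1(cer1)* and 11.7% and 11.8% in WT. With library totals the X median was again the lower one, at -0.13, against 0.49 on the autosomes.

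Each chromosome was cut into 3 equal lengths. The central part of chromosome I had the largest share of higher genes, with 207 of 1020 (20.3%), against 170 of 1383 (12.3%) in its outer parts. The central part of X had the smallest share, with 39 of 777 (5.02%), against 108 of 1279 (8.44%) in its outer parts. On V the outer parts held 210 higher genes among 1617, whereas in the central part the share was 8.95%. Chromosome IV gained reads in *nfki-1(cer1)*, with 19.4% and 19.3% against 16.8% and 16.7% in WT, and it carries *vit-6* and 7 of the 22 higher *col* genes.

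**Figure D5:**
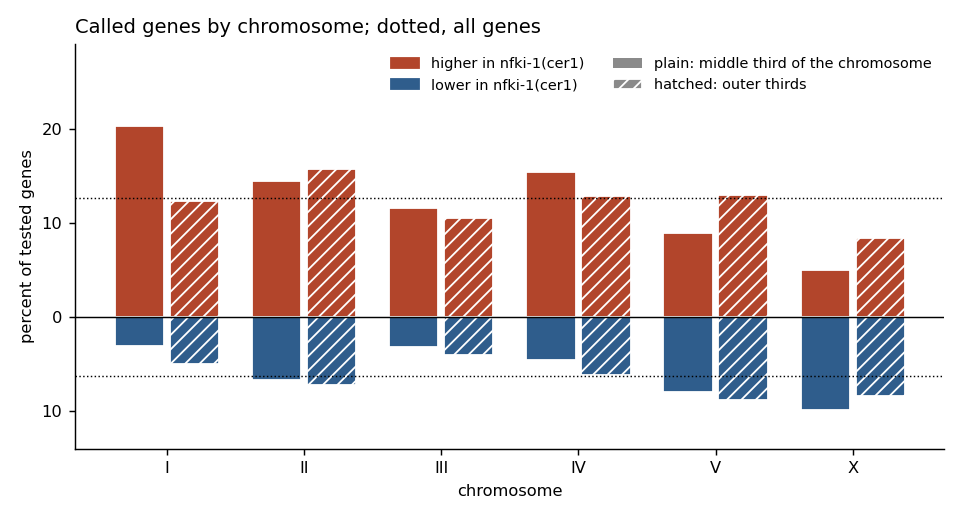
Percent of tested genes at least 4-fold higher (upward) or lower (downward) in *nfki-1(cer1)*, for the central 1 of 3 equal lengths (plain) and the outer ones (hatched) of each chromosome. Dotted lines give the shares over all genes. The middle of chromosome I has the tallest upward bar (20.3%) and the middle of X the shortest (5.02%).

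The values of the other L4 mutants stand beside these as a description, since all of these mutants are set against the same WT sample. Oocyte and eggshell genes had a median log2 ratio to WT of 5.00 in *nfki-1(cer1)*, while it was 4.82 in the *ikb-1(nr2027)* mutant and 3.08 where both genes were mutated. For meiotic chromosome genes the medians were 2.83, 2.60 and 1.56 in the same order of strains, and for furrow collagens they were -4.15, -3.87 and -3.24. For *rps* genes they were -1.11, -0.87 and -0.35. Set directly against *ikb-1(nr2027)*, without the WT files, *nfki-1(cer1)* had 43 genes that were 4-fold higher and 50 that were 4-fold lower, and none of these had a mean of 10 CPM or more. The germline lists differed by medians of 0.03 to 0.16 between these single mutants, the vitellogenins by -0.68 and the other body shape collagens by -0.76.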

How the data were processed

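RNA-seq read counts of whole larvae were used. According to the authors' methods, reads were trimmed and filtered with Trim Galore, aligned to WBcel235 with Bowtie2, and HTSeq gave the number of reads on each gene, and the counts deposited by the authors are whole numbers without normalization. The annotation release and strand setting are not given in the sources used here, so overlapping genes are uncertain. A protocol in the sample labels also mentions collagenase, sorting and long-distance PCR, which the methods do not. Reads that the files list under no gene (13.41% to 15.92% at L4) were kept out of totals and tests.

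Counts of the 2 files of a strain were summed. Genes were kept by edgeR's filterByExpr (minimum count 10) over the 8 L4 files and scaled by TMM, and log2 ratios used a prior count of 1. Genes without reads were set against a floor of 3 reads per strain. The second measure was edgeR's quasi-likelihood test with Benjamini-Hochberg adjustment on the 4 summed L4 samples and 6 L1 libraries (57740500 to 63394016 reads on genes). Nothing says that the L1 replicates came from separate cultures. Interval and floor cover counting error only. The intervals are probably too narrow, since beyond the shared part the files of a strain were more alike than independent counts. Whether they read the same fragments was not tested. Of 42048 identifiers, 968 had no match in the Ensembl or RefSeq tables for WBcel235. Genes called by name were *nfki-1* and *ikb-1*, the 10 largest changes in each direction in log2 ratio (mean of at least 10 CPM, 1 sign in 4 file pairs) and in CPM, every gene of marker lists of up to 7, otherwise 3, and 2 genes in each of 12 families. The lists and rules were chosen with earlier results of these data known. Promoter motifs and proteins, also planned, were not analysed here.

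Alternatives were library totals, RLE factors, other filters, prior counts and thresholds, left-out files and libraries, replicate blocks and DESeq2. R 4.3.3, edgeR 4.0.16, DESeq2 1.42.0, Python 3.11.15, pandas 2.3.3 and scipy 1.17.1 were used, and the fits were tested on simulated data.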

Additional observations from a re-analysis of the deposited data

Results flagged for a closer look

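The oocyte and eggshell genes were flagged because their median was strongly positive at L4 and slightly negative at L1. At L4 the list's median log2 difference from WT was 4.89 and 4.93 in the 2 *nfki-1(cer1)* files, whereas at L1 it was -0.32 and -0.55 in the 2 *nfki-1(cer2)* libraries. Small or mixed L1 medians were not particular to this list. In the same L1 libraries they were 0.18 and -0.61 for the vitellogenins and 0.125 and -0.22 for the sperm genes. The read level of the oocyte and eggshell genes at L1 is not given here, so their small negative L1 values are not read as a direction. The alleles differ between the stages as well, and the difference between the stages was not tested.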

How the results depend on the processing

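Shares are of the genes tested under each alternative. With library totals alone, 3.48% of genes were lower, and 4.22% fell with the L1 spread. Requiring 10 counts in each file left 4.79% lower. A log2 threshold of 1 gave 27.7% higher and 23.3% lower. With the L1 spread, 6.49% fell without the filter on low counts, and an adjusted p below 0.01 together with a log2 ratio of 2 left 3.52% higher and 0.938% lower. A replicate block in that test gave 23.3% risen and 25.4% fallen genes. Differences between replicate 1 and 2 correlated across genes between L1 strains (r = 0.455 to 0.73) and between *nfki-1(cer1)* and WT at L4 (r = 0.884), but the labels do not say what the number marks. Over the 8 L4 files as separate samples, edgeR with a replicate block called 12.8% higher and 6.41% lower. Leaving out L4 files gave 1811 to 1929 higher and 884 to 991 lower genes, and leaving out L1 libraries gave 10.3% to 14.4% risen and 6.18% to 12.3% fallen. The other alternatives kept these counts of genes within 1.5 times. The cause of the shifts was not tested, except that stricter thresholds and filters count fewer genes by construction. No called ratio of a named gene changed sign under library totals, RLE factors, another prior count or a left-out file.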

Other observations

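Other gene groups, chosen after their values were seen, also differed. *cnc-3*, a caenacin antimicrobial peptide gene, had 2.02 and 2.47 CPM in *nfki-1(cer1)* and 35.3 and 48.4 CPM in WT (log2 ratio -4.21, edgeR adjusted p = 0.0479), whereas its neighbour *cnc-4* had 10.1 and 9.89 CPM in *nfki-1(cer1)* and 11.1 and 11.7 CPM in WT. Of 14 tested histone genes (*his*), 3 had a positive and 11 a negative log2 ratio, with a median of -1.25. Among them, the H3 variant *his-74* rose to 79.6 and 85.5 CPM in *nfki-1(cer1)*, against 17.8 and 19.9 CPM in WT. Another H3 variant, *his-71*, fell to 15.3 and 26.3 CPM in *nfki-1(cer1)*, against 53.4 and 82.3 CPM in WT. Of 36 tested *gst* genes, which encode glutathione S-transferases, 10 were at least 4-fold lower, none was higher and 15 fell. Of 65 tested *nlp* genes, which encode neuropeptide-like proteins, 12 were lower, none was higher, 35 fell and 2 rose. Over all tested genes, 6.27% were lower, 12.6% were higher, 13.4% fell and 15.1% rose.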
